A study of Mus musculus with 8 samples.

Results

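Type I interferon-stimulated genes are the genes that cells switch on when interferon α or β reaches them, and 39 of them were followed here in mouse splenic B cells. The members were fixed as a list of gene symbols and matched by symbol in the deposited table. No measured value enters that rule, but the list was drawn up with earlier results of these data known. All 39 were found among the 49315 features, and 35 of them were among the 10708 genes that could be tested. The 4 that were too low to test were Ifi44, Oas2, Mx1 and Mx2.

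In the comparison of Umps-deleted with control B cells, 0 of the 35 tested members passed the test, and the members' differences did not all have the same sign. Of all tested genes, 0.0374% passed above and 0.0934% below the controls. Rsad2, which encodes the antiviral enzyme viperin, was the member whose groups stood apart: its lowest Umps-deleted library was above its highest control library. The same held for 0.504% of all tested genes. Umps-deleted replicate 1 was within the control range for 35 of the 39 members. By share, that was 88.6% of the tested members, beside 80.3% of all tested genes. Replicates 2, 3 and 4 had low levels of B cell transcripts. In these, 62.9%, 37.1% and 80.0% of the tested members were below every control, beside 57.6%, 39.9% and 40.5% of all tested genes.

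RNA was sequenced from total B cells isolated from spleens of mice aged 4 months. Both groups were FcγRIIB-/-, deficient in the inhibitory Fc receptor that Fcgr2b encodes, and such mice develop a spontaneous lupus-like disease. The 4 control samples were FcγRIIB-/-/CD23Cre+, so they carried the Cre transgene driven by CD23 (Fcer2a), a gene of mature B cells, and the 4 UMPS_BKO samples were FcγRIIB-/- with Umps deleted in B cells. Umps encodes the enzyme of de novo pyrimidine synthesis that makes uridine monophosphate. The labels of UMPS_BKO do not name the Cre driver, and they number replicates without saying whether these were different animals. The p-values therefore describe the spread among these samples alone, which may be technical.

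Type I interferon binds the receptor Ifnar1 and Ifnar2, whose kinases Jak1 and Tyk2 activate STAT factors. Stat2 joins Irf9 in the complex ISGF3, which binds the interferon-stimulated response element in the promoters of its target genes. The targets include sensors of foreign nucleic acid, enzymes that degrade RNA or stop its translation, enzymes that act on nucleotides, and feedback inhibitors, and a raised level of such genes in blood cells is a known feature of lupus. Levels below are in TPM, the number of transcripts of a gene per 1000000 transcripts, which is scaled by transcript length, so that levels of different genes can be set side by side. Values are listed for replicates 1 to 4 in that order. Differences are UMPS_BKO minus control on the log2(TPM + 1) scale with their standard error (SE, n = 4 per group), and a difference passed where the limma p, adjusted over all tested genes after Benjamini and Hochberg, was under 0.05.

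Promoters of 5 members that interferon is known to induce are shown, chosen after their values were seen. Their differences below did not all have the same sign, and no member passed the test. Rsad2 and Cmpk2 are divergent neighbours, Isg15 is a standard marker of the response, and Ifit3 and Ifit3b are near-identical copies. Each sequence is the RefSeq window from 250 bases before to 50 bases after the start of the transcript on GRCm38.p6, written on the strand of the gene. The windows are chr12:26456403-26456702 (minus strand) for Rsad2, chr12:26468965-26469264 (plus strand) for Cmpk2, chr4:156200769-156201068 (minus strand) for Isg15, chr19:34583279-34583578 (plus strand) for Ifit3 and chr19:34607707-34608006 (plus strand) for Ifit3b. Capitals mark matches to the core of the interferon-stimulated response element, which is GAAA, then 2 bases of any kind, then GAAA. On the opposite strand it reads TTTC, 2 bases of any kind and TTTC.
Rsad2: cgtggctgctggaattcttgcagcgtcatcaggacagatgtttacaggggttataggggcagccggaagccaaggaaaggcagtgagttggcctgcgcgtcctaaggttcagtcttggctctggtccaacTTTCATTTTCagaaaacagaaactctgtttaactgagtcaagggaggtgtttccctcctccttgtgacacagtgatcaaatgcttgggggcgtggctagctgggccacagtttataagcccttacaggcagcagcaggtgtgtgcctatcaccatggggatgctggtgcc
Cmpk2: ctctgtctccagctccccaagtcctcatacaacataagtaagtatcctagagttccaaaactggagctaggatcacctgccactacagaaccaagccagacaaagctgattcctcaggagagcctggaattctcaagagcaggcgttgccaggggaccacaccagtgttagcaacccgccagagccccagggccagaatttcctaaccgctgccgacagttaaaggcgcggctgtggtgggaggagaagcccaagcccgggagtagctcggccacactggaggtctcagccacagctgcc
Isg15: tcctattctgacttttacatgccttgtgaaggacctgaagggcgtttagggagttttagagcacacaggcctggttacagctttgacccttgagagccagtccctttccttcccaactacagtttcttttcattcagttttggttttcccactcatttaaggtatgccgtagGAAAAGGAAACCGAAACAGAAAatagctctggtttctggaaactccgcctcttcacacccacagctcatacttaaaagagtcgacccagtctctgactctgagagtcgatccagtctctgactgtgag
Ifit3: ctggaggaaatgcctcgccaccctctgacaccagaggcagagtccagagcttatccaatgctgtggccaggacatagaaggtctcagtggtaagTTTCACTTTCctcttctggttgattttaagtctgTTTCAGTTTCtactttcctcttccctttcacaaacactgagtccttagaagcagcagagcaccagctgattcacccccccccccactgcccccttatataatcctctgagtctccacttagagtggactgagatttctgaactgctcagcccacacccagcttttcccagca
Ifit3b: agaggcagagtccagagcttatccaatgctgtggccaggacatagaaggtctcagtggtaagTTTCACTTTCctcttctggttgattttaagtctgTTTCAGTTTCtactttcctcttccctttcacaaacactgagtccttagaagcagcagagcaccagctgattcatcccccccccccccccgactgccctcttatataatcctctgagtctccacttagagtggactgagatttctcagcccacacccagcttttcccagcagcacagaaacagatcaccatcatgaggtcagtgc

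The Rsad2 window held 1 match, on the opposite strand, whose first base lay at −120 from the start counted as position 0. The Cmpk2 window held none. Isg15 had 3 overlapping matches on its own strand, at −78, −72 and −66. Ifit3 had 2 on the opposite strand, at −156 and −122, and Ifit3b had 2 on the opposite strand, at −188 and −154. RefSeq windows were matched for 27 of the 39 members, and 15 of these 27 held at least 1 match in any of their windows. Counted by window, 17 of the 33 member windows held a match, against 3.44% of all 32851 promoter windows. The median log2 difference was −1.09 over the 15 tested members with a match, 10 of them below 0, and −1.32 over the 11 tested members without one, all of them below 0. A match describes the letters in the window only.

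The libraries differed in depth and composition within each group. Recovered depth was 5.81 to 28.6 per library in units of 1000000 reads, and 8626 to 15889 features were above 0. Ribosomal RNA-like features took 5.43% to 60.5% of TPM. Averaged over 16 pan-B cell genes, log2(TPM + 1) came to 7.25, 8.09, 8.57 and 8.15 for controls and to 7.98, 5.99, 6.78 and 4.55 for UMPS_BKO. Liver markers made up 4.41% of TPM in the second control and 1.33% in the third, and skeletal muscle markers 12.97% in UMPS_BKO replicate 4. The deleted gene Umps had 16.1, 35.1, 18.6 and 8.98 TPM across control libraries and 5.99, 1.05, 13.6 and 2.16 TPM across UMPS_BKO libraries, so the groups overlapped, and the sources used here do not say which exons were removed. Fcgr2b transcripts were present in every library (8.42 to 16.8 TPM in the controls and 2.18 to 9.54 in UMPS_BKO), although all mice lacked the receptor, and which part of that gene is disrupted is likewise not said. Fcer2a, whose promoter drove Cre in the controls, ranged over 100.5 to 406 TPM across control libraries and 20.4 to 235 TPM across UMPS_BKO libraries. The median log2 difference of all tested genes was −0.90, and it was −0.15 after libraries were scaled by the median of ratios, so each member's difference has to be read against these. In bulk RNA, fewer cells of a type and less RNA per cell cannot be told apart.

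Over the whole table, limma placed 4 genes (0.0374%) above and 10 genes (0.0934%) below the controls in UMPS_BKO, and 0 of the 35 tested members were among either. At an unadjusted p under 0.05 there were 9 tested members (25.7%), 8 of them below the controls, against 17.4% of all tested genes. Groups that did not overlap were found for 1 tested member above the controls, Rsad2, against 0.504% of all tested genes. For 0 tested members did all UMPS_BKO libraries lie below all controls, against 4.81% of all tested genes. The median log2 difference of the tested members was −1.27, with 29 of 35 below 0 (82.9%), beside −0.90 and 84.3% for all tested genes. With median-of-ratios scaling the median was −0.48 with 25 of 35 below 0 (71.4%), beside −0.15 and 57.5%.

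**Figure D1:**
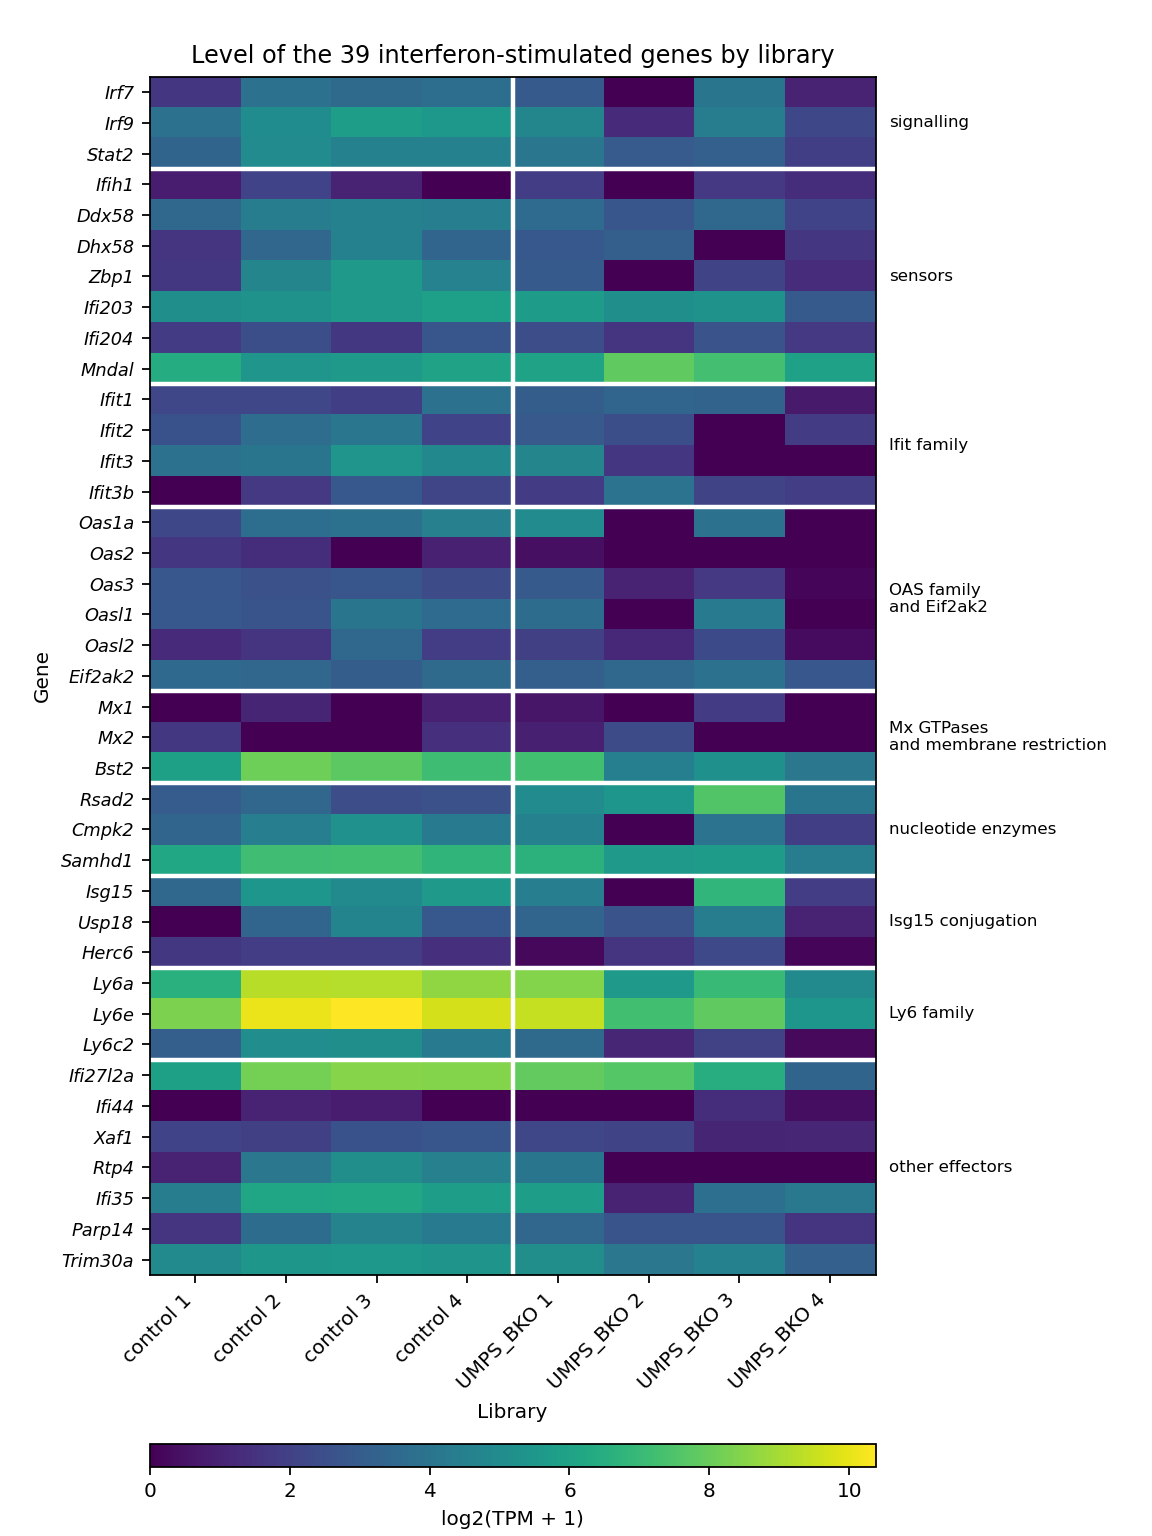
Level of each of the 39 members (rows, grouped by role) in each library (columns) as log2(TPM + 1) on a colour scale from 0 to just over 10. Ly6e, Ly6a, Ifi27l2a and Bst2 had the highest mean level over the controls, Rsad2 is brighter in all 4 UMPS_BKO columns than in any control column, and UMPS_BKO replicate 4 is the darkest column, with a mean of 1.84.

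The signalling members were Irf7, the factor that amplifies interferon production, and Irf9 and Stat2, which are parts of ISGF3. Irf9 had 14.1, 32.3, 53.6 and 45.6 TPM across control libraries and 26.1, 1.43, 19.7 and 3.82 TPM across UMPS_BKO libraries. UMPS_BKO replicates 1 and 3 were within the control range and replicates 2 and 4 below it, so the groups overlapped. Its log2 difference was −1.90 ± 0.83 (limma, adjusted p = 0.283). Stat2 had 9.12, 31.1, 22.4 and 22.6 TPM across control libraries and 16.0, 6.78, 8.12 and 2.76 TPM across UMPS_BKO libraries. Here UMPS_BKO replicates 2, 3 and 4 were below every control and replicate 1 was not. The log2 difference was −1.33 ± 0.67 (limma, adjusted p = 0.299). Irf7 had 2.09, 13.6, 10.9 and 12.4 TPM across control libraries and 6.73, 0, 15.5 and 1.07 TPM across UMPS_BKO libraries. Control replicate 1 was far below the other controls, and UMPS_BKO replicate 3 was above them all, so the groups overlapped in both directions. For Irf7 the log2 difference was −1.19 ± 0.93 (limma, adjusted p = 0.434).

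Among the 7 sensors the differences ran from −2.55 to 0.90 on the log2 scale, with a median of −0.71, and 0 were called. Zbp1, which binds Z-form nucleic acid and can start necroptosis, had 2.19, 25.7, 46.5 and 23.5 TPM across control libraries and 6.72, 0, 3.39 and 1.51 TPM across UMPS_BKO libraries. The 4 UMPS_BKO libraries were all below control replicates 2, 3 and 4, but control replicate 1 was as low as they were. The log2 difference was −2.55 ± 0.93 (limma, adjusted p = 0.283). Among the cytosolic RNA helicases, Ddx58 (RIG-I) ranged over 10.1 to 22.9 TPM across control libraries and 3.24 to 11.3 TPM across UMPS_BKO libraries. Dhx58 (LGP2) was at 2.02 to 22.7 and 0 to 7.86 TPM, and Ifih1 (MDA5) did not exceed 3.28 TPM in any library. The groups overlapped for all 3 helicases.

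The other sensors belong to the Ifi200 family of DNA-binding proteins, encoded in a cluster on chromosome 1. Mndal, singled out after its values were seen, had 86.1, 41.2, 46.4 and 62.7 TPM across control libraries and 62.6, 226, 154 and 60.0 TPM across UMPS_BKO libraries. UMPS_BKO replicates 2 and 3 were above every control for this gene, and replicates 1 and 4 were within the control range. The log2 difference was 0.90 ± 0.60 (limma, adjusted p = 0.374), and 1.84 with median-of-ratios scaling. Its neighbour Ifi203 had a log2 difference of −0.71, which turned to 0.21 after scaling. Exons of Mndal and Ifi203 overlap by 37 bases on the same strand, and the sources used here do not say how reads of this gene family were divided between copies. Both levels are therefore uncertain. Ifi204 stayed between 1.94 and 5.94 TPM in all 8 libraries.

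The 4 Ifit genes encode proteins that bind viral RNA and block its translation. Ifit3 had 14.1, 15.2, 41.9 and 27.8 TPM across control libraries and 25.2, 2.16, 0 and 0 TPM across UMPS_BKO libraries. UMPS_BKO replicate 1 was inside the control range and the other 3 were below it. Its log2 difference, −2.96 ± 0.99, was the lowest of the tested members (limma, adjusted p = 0.283). The zeros rest on 0 recovered reads, which allows up to 0.129 TPM in UMPS_BKO replicate 3 and 0.109 TPM in replicate 4 by a floor of 3 reads; such floors cover counting error only. Ifit3b, the near-identical copy, was singled out after its values were seen. It had 0, 2.32, 6.29 and 3.51 TPM across control libraries and 2.52, 14.7, 3.43 and 2.66 TPM across UMPS_BKO libraries, where replicate 2 was above every control. This gave a log2 difference of 0.76 ± 0.79 (limma, adjusted p = 0.552), opposite in sign to that of Ifit3, and reads of the copies may have been divided between them. Ifit1 ranged over 2.75 to 13.7 TPM across control libraries and 0.667 to 9.38 TPM across UMPS_BKO libraries, and Ifit2 over 3.27 to 15.7 and 0 to 6.35 TPM.

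The OAS enzymes make oligoadenylates that activate RNase L, and Eif2ak2 encodes PKR, a kinase that shuts down translation when it meets double-stranded RNA. Of the 5 tested genes in this group 0 were called, and the median log2 difference was −1.18. Oas1a, Oasl1 and Oas3 had at least 1 UMPS_BKO library above all controls and at least 2 below all controls. Oas1a, for example, had 3.76 to 21.7 TPM across control libraries and 31.4, 0, 14.1 and 0 TPM across UMPS_BKO libraries. Eif2ak2 varied little: it had 10.6, 9.74, 7.38 and 11.1 TPM across control libraries and 7.91, 10.4, 14.1 and 5.96 TPM across UMPS_BKO libraries. The PKR gene's log2 difference was −0.06 ± 0.59, and 0.79 with median-of-ratios scaling (limma, adjusted p = 0.951 on the TPM scale).

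The Mx GTPases, which trap viral nucleocapsids, had low levels. Mx1 reached at most 2.54 TPM and Mx2 at most 4.14 TPM, and each was at 0 in at least 4 libraries. Bst2, or tetherin, which holds budding virus particles at the cell surface, had 58.0, 272, 217 and 140.0 TPM across control libraries and 152, 21.3, 36.0 and 16.3 TPM across UMPS_BKO libraries. UMPS_BKO replicate 1 was within the control range, and the other 3 were below control replicate 1, the lowest control. The difference in log2 units was −1.96 ± 0.76 (limma, adjusted p = 0.283). Bst2 is also a marker of plasmacytoid dendritic cells. The 10 genes listed as markers of those cells had a summed level of 1060 to 2286 TPM in the controls and 481 to 2048 TPM in UMPS_BKO, with 0 of 6 tested markers called and a median log2 difference of −0.94. Ly6d gave most of this sum except in UMPS_BKO replicate 4. There Cox6a2, which striated muscle also expresses, had 1109 TPM of a summed 1224, and Ly6d had 79.4 TPM. Siglech, a defining marker, ranged over 0 to 2.73 TPM across control libraries and 0 to 1.00 TPM across UMPS_BKO libraries, and the part of such cells in the Bst2 level was not tested.

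Rsad2, Cmpk2 and Samhd1 act on nucleotides and so bear on the pyrimidine pathway that Umps serves. Viperin, the Rsad2 product, converts CTP into a chain-terminating analogue, Cmpk2 is a mitochondrial kinase that phosphorylates UMP and CMP, and Samhd1 hydrolyses deoxynucleotide triphosphates. Rsad2 (ENSMUSG00000020641), which lies on the minus strand of chromosome 12 from 26442746 to 26456452 on GRCm38, had 7.12, 9.76, 4.41 and 4.95 TPM across control libraries and 30.8, 43.0, 189 and 15.2 TPM across UMPS_BKO libraries. Behind these levels stood 392, 246, 47 and 232 recovered reads for controls and 2515, 1834, 10861 and 1042 for UMPS_BKO. Every UMPS_BKO library was above every control, and replicate 3 stood far above the other 3. The log2 difference was 2.65 ± 0.75 (limma, unadjusted p = 0.00398, adjusted p = 0.277), so it did not pass the test over all genes.

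The Rsad2 difference ranged from 1.96 without UMPS_BKO replicate 3 to 3.49 with median-of-ratios scaling, and it was above 0 in all 19 alternative settings. Its adjusted p passed in 1 of these, with limma's array weights (adjusted p = 0.0280), and reached 1.00 in another. Its rank among the 39 members, counted from the highest level, was 18, 23, 31 and 29 for controls and 11, 6, 2 and 7 for UMPS_BKO. No other annotated exon overlaps Rsad2. The order of the UMPS_BKO libraries for Rsad2 (replicate 3, then 2, 1 and 4) was also that of the β-globin gene Hbb-bs, singled out after its values were seen. Hbb-bs, whose reads may be shared with its near-identical copy Hbb-bt, had 198, 195, 61.3 and 81.9 TPM across control libraries and 2582, 5148, 19521 and 1639 TPM across UMPS_BKO libraries. The 15 erythroid marker genes in the table had a summed level of 170.0 to 585 TPM in the controls and 4222 to 47605 TPM in UMPS_BKO, with 3 of 13 tested markers called, all above the controls, and a median log2 difference of 3.61. Whether erythroid RNA has a part in the Rsad2 level was not tested.

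Cmpk2 (ENSMUSG00000020638) is separated from Rsad2 by 12751 bases on chromosome 12 and is transcribed away from it, from 26469204 to 26479837 on the plus strand. It had 9.56, 20.7, 37.1 and 18.2 TPM across control libraries and 22.8, 0, 14.7 and 2.85 TPM across UMPS_BKO libraries. UMPS_BKO replicates 1 and 3 were within the control range and replicates 2 and 4 below it. Its log2 difference was −1.72 ± 0.94 (limma, adjusted p = 0.322). The ratio of Rsad2 to Cmpk2 in TPM was therefore 0.745, 0.472, 0.119 and 0.272 for controls and 1.35, 12.8 and 5.34 for UMPS_BKO replicates 1, 3 and 4. In UMPS_BKO replicate 2 Cmpk2 had 0 reads, and the ratio came to 587 against its floor of 0.0733 TPM. That floor covers counting error only. This library had 11 members at 0 and 8626 features above 0, so 587 is not a firm lower bound. With that floor used for replicate 2, the ratio was above 1 in all 4 UMPS_BKO libraries and below 1 in all 4 controls. Rsad2 alone already had groups that stood apart, so the ratio is no separate result. Ratios of other gene pairs were not compared.

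Samhd1 had 73.3, 144, 149 and 109 TPM across control libraries and 100.3, 47.4, 50.9 and 19.8 TPM across UMPS_BKO libraries. UMPS_BKO replicates 2, 3 and 4 were below every control, and replicate 1 was between control replicates 1 and 4. This gave a log2 difference of −1.27 ± 0.59, and −0.33 with median-of-ratios scaling (limma, adjusted p = 0.288 on the TPM scale). The nucleotide enzymes thus differed in sign among themselves.

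**Figure D2:**
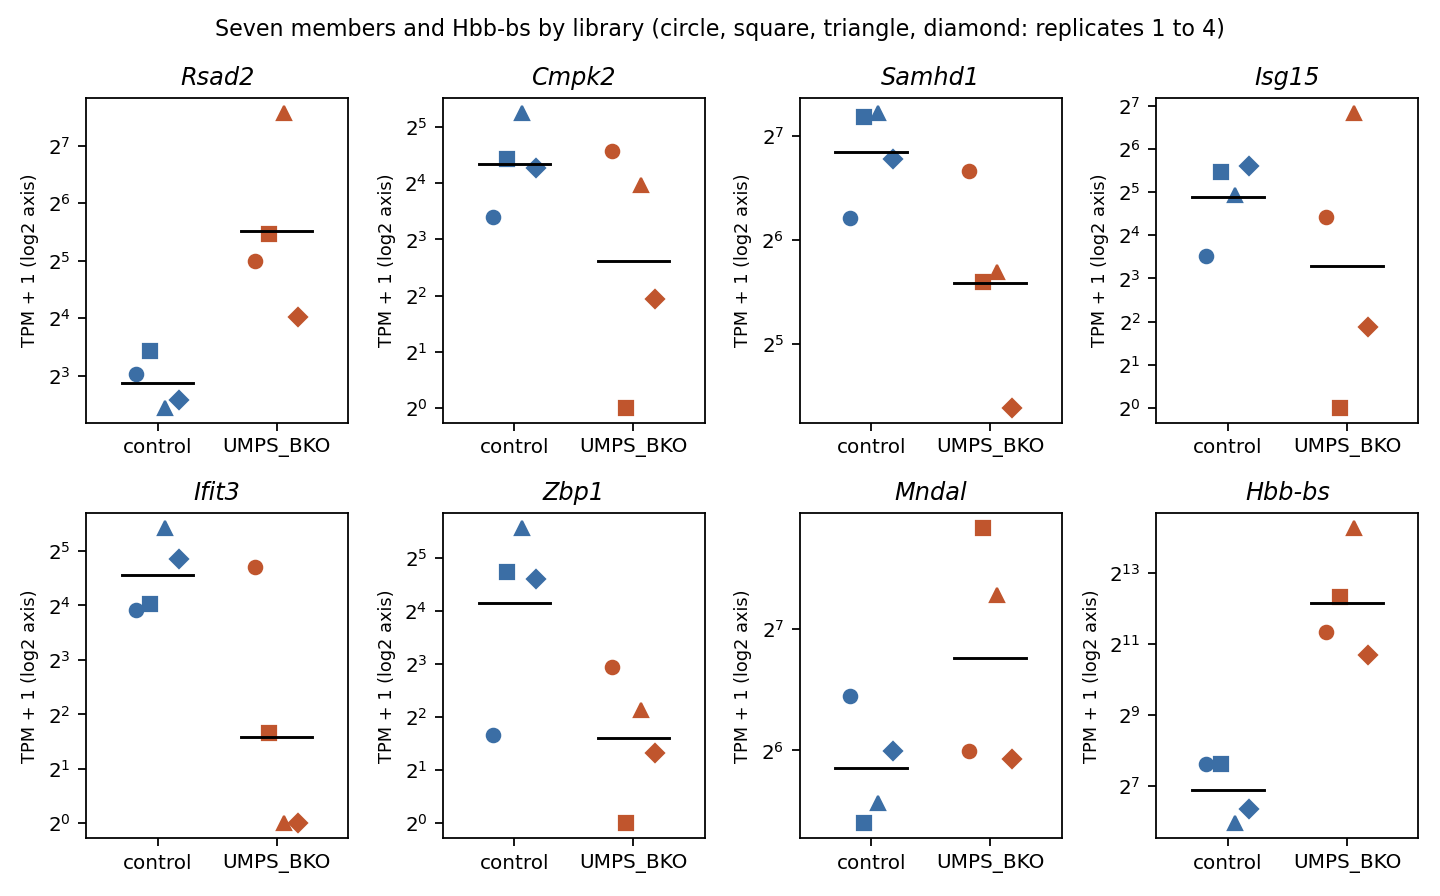
TPM + 1 (log2 axis) of 7 members and of Hbb-bs in each library, with marker shapes for replicates 1 to 4 and a bar at the mean on the log scale of each group of 4. Rsad2 and Hbb-bs are the panels in which the groups do not overlap, with Rsad2 at 4.41 to 9.76 TPM in the controls and 15.2 to 189 TPM in UMPS_BKO.

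Isg15 is a ubiquitin-like protein that is joined to other proteins, Herc6 is the ligase that attaches it in the mouse, and Usp18 removes it and damps signalling at the interferon receptor. Isg15 had 10.4, 42.9, 29.5 and 47.6 TPM across control libraries and 20.5, 0, 113 and 2.68 TPM across UMPS_BKO libraries. The UMPS_BKO libraries were spread on both sides of the controls: replicate 3 was above them, replicates 2 and 4 below them and replicate 1 among them. The difference in log2 units was −1.59 ± 1.20 (limma, adjusted p = 0.421), the widest error of the tested members. In UMPS_BKO replicate 2 the 0 reads of Isg15 allow up to 0.403 TPM by counting error alone. Usp18 ranged over 0 to 24.4 TPM across control libraries and 0.997 to 19.5 TPM across UMPS_BKO libraries, and Herc6 over 1.64 to 2.71 and 0.0885 to 3.86 TPM.

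The 3 Ly6 genes, neighbours on chromosome 15, encode small surface proteins, and Ly6e and Ly6a were the 2 members with the highest mean level. Ly6e, a factor that blocks entry of some viruses, had 323, 1063, 1328 and 843 TPM across control libraries and 705, 150.0, 228 and 43.3 TPM across UMPS_BKO libraries. UMPS_BKO replicate 1 was above control replicate 1, and replicates 2, 3 and 4 were below every control. Its log2 difference was −2.12 ± 0.80 (limma, adjusted p = 0.283). Ly6a, the stem cell antigen Sca-1, had 96.0, 616, 594 and 406 TPM across control libraries and 345, 47.5, 127 and 30.4 TPM across UMPS_BKO libraries. Only UMPS_BKO replicates 2 and 4 were below every control, since control replicate 1 was itself low. This gave a log2 difference of −1.94 ± 0.83 (limma, adjusted p = 0.283). Ly6c2, a surface marker of inflammatory monocytes, had 7.88, 32.8, 35.1 and 18.1 TPM across control libraries and 11.2, 1.19, 3.00 and 0.208 TPM across UMPS_BKO libraries. UMPS_BKO replicates 2, 3 and 4 were below every control, and the log2 difference was −2.66 ± 0.82 (limma, adjusted p = 0.283). The 16 monocyte and macrophage markers, Ly6c2 among them, had a summed level of 203 to 597 TPM in the controls and 59.1 to 388 TPM in UMPS_BKO. Of their 15 tested genes 0 were called and the median log2 difference was −0.85, and the part of such cells in the Ly6c2 level was not tested.

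Among the other effectors, Ifi27l2a, of the ISG12 family, had 59.0, 292, 362 and 347 TPM across control libraries and 238, 199, 88.5 and 9.01 TPM across UMPS_BKO libraries. Control replicate 1 was apart from the other controls, and UMPS_BKO replicate 4 alone was below it. The difference in log2 units was −1.42 ± 0.96 (limma, adjusted p = 0.383). Rtp4, an interferon-induced antiviral protein, had 0.998, 16.4, 33.7 and 21.6 TPM across control libraries and 15.2, 0, 0 and 0 TPM across UMPS_BKO libraries. UMPS_BKO replicate 1 was the library that had Rtp4 reads, 609 of them, and the others had 0. Its log2 difference was −2.68 ± 1.11 (limma, adjusted p = 0.283), and 296 bases of its exons are shared with another annotated gene, Gm45338. Ifi35, Parp14, Trim30a and Xaf1 had log2 differences of −1.94, −0.93, −1.09 and −0.74, and the groups overlapped for each. Ifi44 did not exceed 1.54 TPM.

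**Figure D3:**
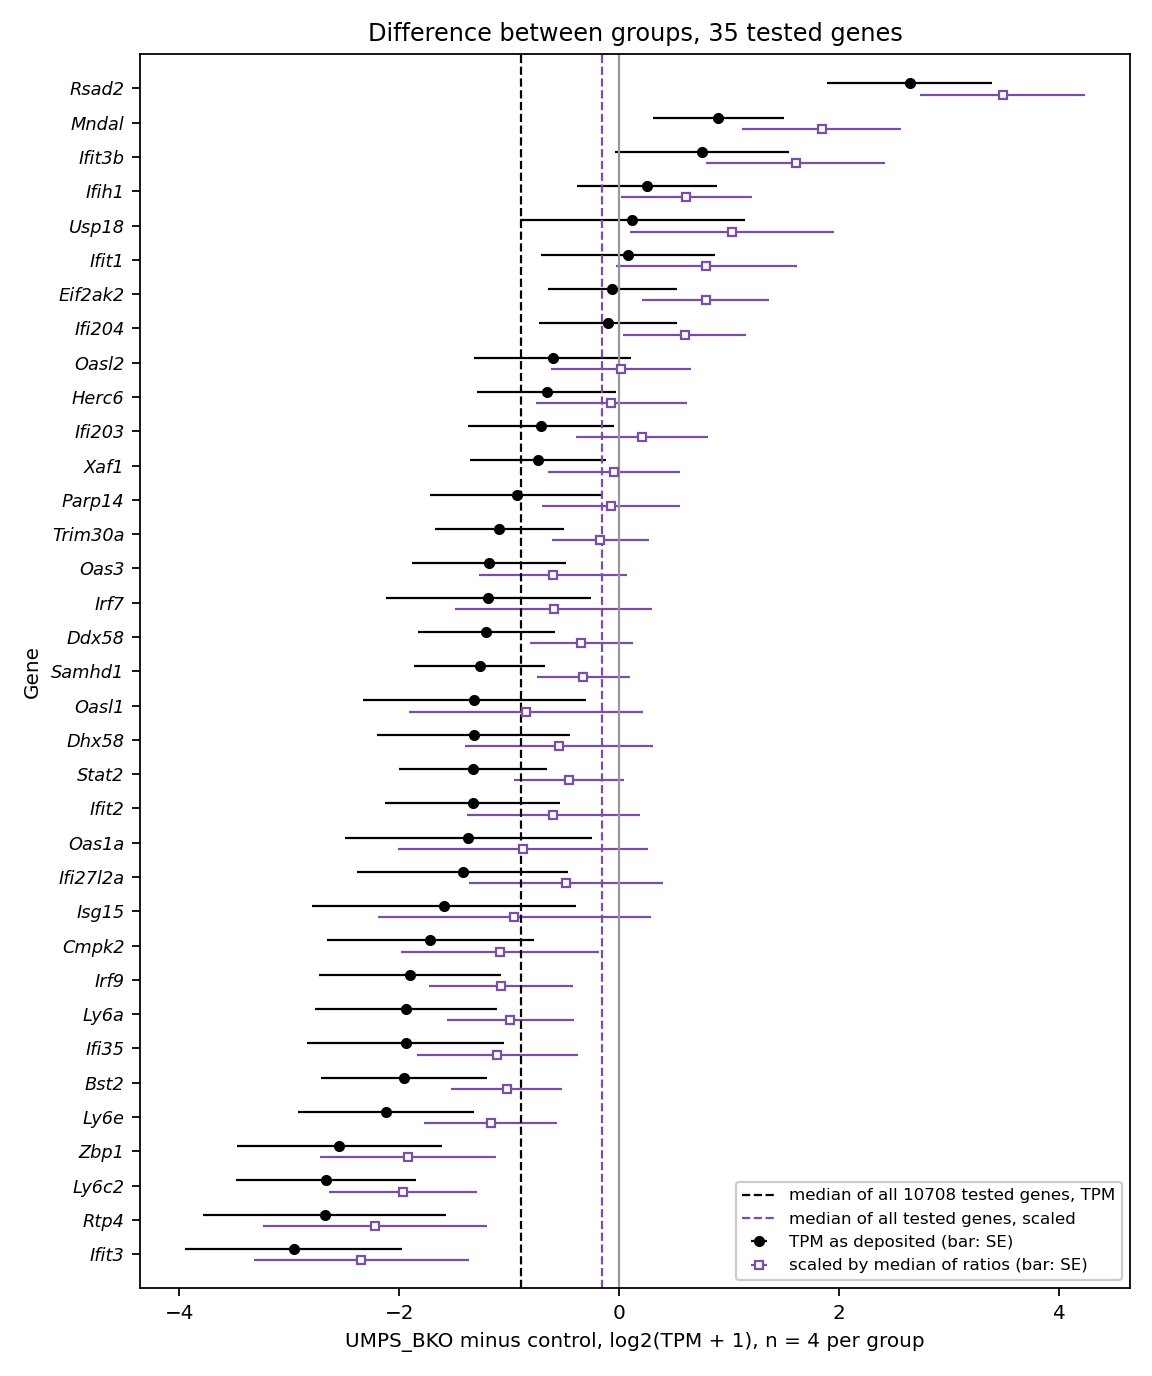
Log2 difference (UMPS_BKO minus control, log2(TPM + 1) units) of the 35 tested members, as deposited (filled circles) and with median-of-ratios scaling (open squares), with bars for the SE and dashed lines at the median of all tested genes, −0.90 and −0.15. Rsad2 lies farthest above 0 at 2.65 and Ifit3 farthest below at −2.96, and scaling moves the points to the right, to higher values.

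Read across members, the libraries differed within each group. Averaged over the 39 members, log2(TPM + 1) came to 2.98, 4.07, 4.27 and 4.04 for controls and to 3.85, 2.45, 3.34 and 1.84 for UMPS_BKO. Control replicate 1 was below UMPS_BKO replicates 1 and 3, so the groups overlapped. With median-of-ratios scaling these means were 3.30, 3.36, 3.44 and 3.67 for controls and 3.71, 3.12, 3.63 and 2.20 for UMPS_BKO. On that scale UMPS_BKO replicates 1 and 3 were among the highest libraries, and replicate 4 was the one far from the rest.

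UMPS_BKO replicate 1 was within the range of the controls for 35 of the 39 members. The other UMPS_BKO libraries were below every control for 22, 13 and 28 members in replicates 2, 3 and 4, and above every control for 4, 9 and 1. All of those below were among the 35 tested members, so 62.9%, 37.1% and 80.0% of the tested members were below every control, beside 57.6%, 39.9% and 40.5% of all tested genes. For replicates 2 and 3 these shares were near the background, and for replicate 4 the share of members was higher, which was not tested. Above every control were 3, 7 and 1 of the 35 tested members, beside 7.76%, 10.1% and 13.4% of all tested genes. Replicate 1 was within the control range for 88.6% of the tested members and 80.3% of all tested genes. The 1 member above every control in replicate 4 was Rsad2. Control replicate 1 was the lowest control for 24 members, ties left out. Members at 0 numbered 4, 1, 3 and 2 for controls and 1, 11, 6 and 7 for UMPS_BKO. Ly6e, Ly6a and Ifi27l2a together made up 51.9%, 67.0%, 67.9% and 65.3% of the members' summed TPM for controls and 62.8%, 45.3%, 35.7% and 31.1% for UMPS_BKO.

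The libraries with low member means also had low levels of pan-B cell genes, whose log2 level is given above. The summed TPM of the 16 pan-B cell genes was 3841 to 10971.5 in the controls and 640.3 to 6234 in UMPS_BKO. None of these 16 genes was at 0 in any library, 0 of the 16 were called by limma, and their median log2 difference was −1.92, or −0.98 after scaling. Within each library the member mean minus the pan-B cell mean was −4.27, −4.02, −4.30 and −4.11 for controls and −4.13, −3.54, −3.44 and −2.71 for UMPS_BKO. By this measure UMPS_BKO replicate 1 was within the control range and the other 3 were above it. Low members have little room to fall on this scale, while the higher pan-B cell genes have more. The gap can therefore narrow wherever both levels are low, and it does not show that members were raised. Why it was narrower in these libraries was not tested. With a covariate for the pan-B cell mean the median member difference was −0.019, and that of Rsad2 was 3.21 (limma, adjusted p = 0.999). The covariate itself averaged 8.01 in the controls and 6.33 in UMPS_BKO, so it can take up group differences of any gene. The median of all tested genes in this setting is not given here, so −0.019 cannot be read as particular to the members.

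**Figure D4:**
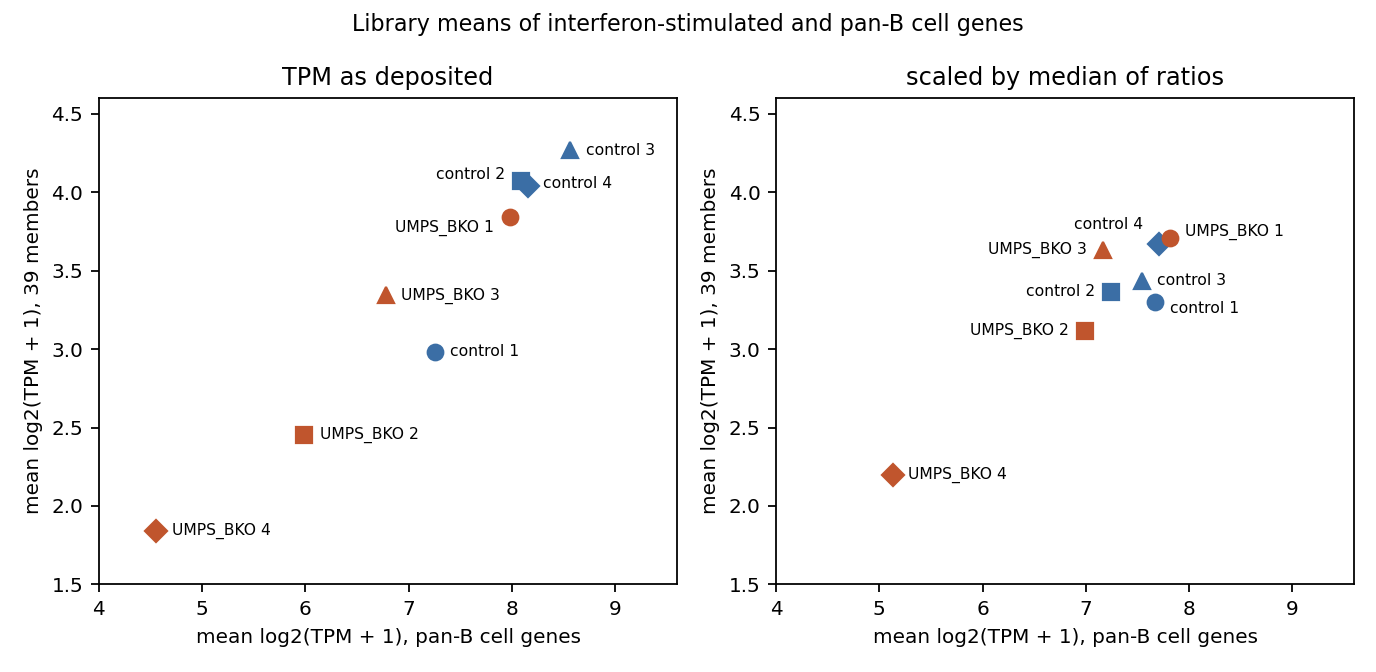
Mean log2(TPM + 1) of the 39 members against that of 16 pan-B cell genes, 1 point per library with a marker shape per replicate, as deposited (left) and with median-of-ratios scaling (right). UMPS_BKO replicate 1 (3.85) sits beside control replicates 2 and 4 (4.07 and 4.04), and UMPS_BKO replicate 4 is the lowest point in both panels (1.84 and 2.20).

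The rest of the pathway was read from lists of its parts. All 20 type I and III interferon genes listed, Ifnb1 and the Ifna genes among them, were at 0 in all 8 libraries, so no transcript of these 20 genes was detectable at this depth. Of the receptors and their kinases, 8 were tested, 0 were called and the median log2 difference was −1.05 (−0.31 after scaling). Ifngr1, Il10rb and Ifnar1 had the smallest p, with −2.06, −1.73 and −1.28. For 7 STAT and IRF factors beside the members, 0 were called and the median was −1.63 (−0.70 after scaling), with Irf1 at −1.93, Irf8 at −1.94 and Irf3 at −1.77. In the controls Ifnar1 was at 7.09 to 22.4 TPM.

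Upstream of interferon, 15 sensing adaptors and receptors were tested with 0 called and a median of −1.68 (−0.99 after scaling), and Myd88, Tbk1 and Tlr9 had log2 differences of −2.99, −2.22 and −3.14. The 10 negative regulators had a median of −1.42 (−0.67 after scaling) with 0 called, and Socs1, Ptpn6 and Trim27 were at −2.98, −1.96 and −1.45. Guanylate-binding proteins and immunity-related GTPases, which respond to interferon γ as well, had a median of −1.50 (−0.74 after scaling) over 14 tested genes, 0 of them called. In this group all UMPS_BKO libraries were below all controls for 3 genes, Gbp2 (−3.25; limma, adjusted p = 0.263), Gbp3 (−1.93) and Tgtp2 (−1.32), beside 4.81% of all tested genes. The same held for 2 of the sensing adaptors (Mavs and Rnaseh2b), 1 negative regulator (Trim27) and 2 of the further interferon-stimulated genes (Parp10 and Slfn1). The further list of 40 tested interferon-stimulated genes had a median of −1.50 (−0.63 after scaling) with 0 called, and Ifi30, Phf11b and Psmb8 were at −3.19, −3.66 and −2.41. The medians of all these lists were below that of all tested genes, as was that of the pan-B cell genes.

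Markers of other cell types that a B cell isolate could hold were read in the same way. For T cells (10 tested genes), natural killer cells (4), conventional dendritic cells (3) and neutrophils (7), 0 were called in limma and the median log2 differences were −1.46, −1.27, −0.88 and −2.23. Plasma cell genes had a median of −1.95 over 10 tested genes with 0 called. Platelet and megakaryocyte genes had a median of 1.05 (5 tested), endothelial and stromal genes −0.39 (4), liver genes −4.74 (3) and skeletal muscle genes 4.09 (10), with 0 called in each. The part of these cells in the members' levels was not tested.

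The count of members that passed depended on the weight given to single libraries. With limma's array weights, which let libraries that depart from their group count for less, Rsad2 was called above the controls (1 member; 0.784% of all tested genes in that direction). With the same weights 8 members were called below the controls, Ifit3, Ly6c2, Zbp1, Rtp4, Bst2, Ly6e, Ly6a and Ifi35, against 17.8% of all tested genes. Without UMPS_BKO replicate 1, the library that resembled the controls, 0 members were called above them (0.167% of all tested genes). Called below them were 2 members, Ifit3 (−4.00) and Ly6c2 (−3.28), against 2.8% of all tested genes (limma, adjusted p = 0.0285 and 0.0485). Leaving out a library already known to lie near the controls favours such calls, so no weight can be put on these p-values. With UMPS_BKO replicates 2, 3 and 4 left out, 1 library stood for UMPS_BKO and the controls alone gave the spread. The log2 difference of Ifit3 was then 0.16 and that of Rsad2 2.13, and no weight can be put on a test of 1 library that was already known to lie within the control range for most members.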

How the data were processed

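RNA of splenic B cells was sequenced in 8 libraries, 4 per group, after poly(A) enrichment per the labels' protocols. The submitters' processing notes name GRCm38, STAR 2.5.2b, Subread 1.5.2 with featureCounts, and bcl2fastq 2.20. The authors deposited TPM, 1 column per library, each summing to 1000000. The TPM formula, annotation release and strand setting were not given in the sources used here. Overlapping genes and near-identical copies are uncertain for that reason. TPM includes ribosomal RNA-like features, and the more of a library they take, the lower all its other values are.

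Genes with a TPM of at least 1 in at least 4 of 8 libraries were tested two-sided by limma 3.58.1 (R 4.3.3) using log2(TPM + 1) values, a trended eBayes prior and no covariate, and p-values of the 10708 genes were adjusted after Benjamini and Hochberg. Fold changes on this scale understate those of low genes. Depth was recovered from the step size of low TPM values times the exon lengths of GENCODE on GRCm38. Of the values under 30 reads, 90.6% to 92.8% came out whole within 0.05 reads. These reads entered no count model. Coordinates are those of that annotation and promoter windows those of RefSeq on GRCm38.p6. Tables were handled in Python 3.11.15 with pandas 2.3.3 and numpy 2.4.6. The fitting step was run on simulated data with higher levels and larger differences than those of the members. That run therefore does not show how often differences of the members' size would be found.

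The members, the gene lists, the marker lists and the settings were chosen with earlier results of these data known. Named in full were the 8 tested members with the smallest p, the 4 with the highest mean TPM, Rsad2, Cmpk2, Samhd1, Irf7, Irf9 and Stat2, and of each list up to 3 genes with the smallest p. The other settings were pseudocounts of 0.1 and 5, no filter, a mean TPM of at least 5, median-of-ratios scaling, leaving out ribosomal RNA-like and mitochondrial features, the pan-B cell mean as covariate, array weights, a replicate block, each library left out in turn, and the sets of libraries named in the closing section.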

Additional observations from a re-analysis of the deposited data

Results flagged for a closer look

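Of 78 groups of 4 libraries (39 members in each of 2 groups), 7 held 1 library whose gap to its nearest neighbour made up more of the group's range, on the log2(TPM + 1) scale, than Dixon's 95% critical value. For independent, normally distributed values chance flags about 1 in 20 groups. The members share the same libraries, so that rate need not hold here. Where the other libraries of a group are all at 0, any value above 0 is flagged.

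Control replicate 1 was flagged for Irf7, at 2.09 TPM beside 10.9 to 13.6 TPM in the other controls, and for Ifi27l2a, at 59.0 TPM beside 292 to 362 TPM. Control replicate 4 was flagged for Ifit1, at 13.7 TPM beside 2.75 to 3.62 TPM.

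UMPS_BKO replicate 1 was flagged for Rtp4, at 15.2 TPM, and for Oas2, at 0.346 TPM, each beside 0 TPM in the other UMPS_BKO libraries. UMPS_BKO replicate 2 was flagged for Ifit3b, at 14.7 TPM beside 2.52 to 3.43 TPM. UMPS_BKO replicate 4 was flagged for Ifit1, at 0.667 TPM beside 7.31 to 9.38 TPM. For Rsad2, the gap below the 189 TPM of UMPS_BKO replicate 3 was 0.840 of the range in TPM but 0.594 on the log2 scale, so it was not flagged.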

How the results depend on the processing

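The sign of the difference and the side of the threshold were the same as reported for 590 of 651 member values over 19 other settings. For 50 the sign turned, and for 11 the value passed the threshold where the reported one did not. For 15 of the 35 tested members the sign turned in no setting. The causes were not tested. Mx1, Mx2, Oas2 and Ifi44 did not reach 1 TPM in 4 libraries and were not tested, and the level that a 0 allows differed between libraries with their depth.

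Genes called above the controls numbered 1 with a pseudocount of 0.1, 0 without a filter, 1 without ribosomal RNA-like and mitochondrial features, 0 with a covariate for the pan-B cell mean, 84 with array weights and 0 without UMPS_BKO replicates 2, 3 and 4. Genes called below the controls numbered 5 with a pseudocount of 5, 1 without a filter, 6 with a mean TPM of at least 5, 6 after scaling by the median of ratios, 5 without ribosomal RNA-like and mitochondrial features, 1 with the covariate, 1906 with array weights, 0 without control replicate 2 and UMPS_BKO replicate 4, and 0 without UMPS_BKO replicates 2, 3 and 4. With single libraries left out the counts ran from 0 to 17 above and from 0 to 284 below, the highest without UMPS_BKO replicate 1. Members called below the controls ran from 0 to 2 over these, and array weights called 1 member above and 8 below. The median member difference was −0.48 after scaling, −0.019 with the covariate and −0.036 without UMPS_BKO replicates 2, 3 and 4. That last setting leaves 1 UMPS_BKO library, assumed to vary like the controls, so its calls carry no weight.

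The replicate number as a block left 0 members called, with 5 genes above and 23 below the controls. Deviations of same-numbered libraries from their group means had correlations across genes of −0.35, −0.19, −0.03 and −0.09 for replicates 1 to 4. Differences in composition between libraries enter these values, so they cannot tell whether same-numbered samples were paired. The labels do not say so either.

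Signs that turned, in log2 units, were as follows. With a pseudocount of 0.1 Ifit1 was at −0.031, and with 5 Usp18 was at −0.032. Scaling by the median of ratios put Ifi204 at 0.60, Ifi203 at 0.21, Oasl2 at 0.021 and Eif2ak2 at 0.79. Without ribosomal RNA-like and mitochondrial features Ifi204 was at 0.55, Ifi203 at 0.039 and Eif2ak2 at 0.67. With the covariate Ifi204 was at 0.33, Ifi203 at 0.56, Isg15 at 0.38, Oasl2 at 0.53, Oasl1 at 0.77, Oas1a at 1.34, Irf7 at 0.33, Ifi27l2a at 0.83, Ly6a at 0.052, Parp14 at 0.37 and Eif2ak2 at 0.081. Array weights put Eif2ak2 at 0.16. Without control replicate 2 and UMPS_BKO replicate 4, Ifi204 and Eif2ak2 were each at 0.13, while Usp18 kept its sign at 0.96. Without UMPS_BKO replicates 2, 3 and 4, Ifi204 was at 0.26, Ifi203 at 0.26, Oasl1 at 0.35, Oas3 at 0.28, Oas1a at 1.41, Bst2 at 0.033, Ifi35 at 0.16, Cmpk2 at 0.23, Ifi27l2a at 0.14, Rtp4 at 0.33 and Ifit3 at 0.16. With single libraries left out, Usp18 ranged from −0.79 to 0.77, Ifit1 from −0.17 to 0.71, Ifih1 from −0.071 to 0.67, Ifi204 from −0.29 to 0.10 and Eif2ak2 from −0.25 to 0.12.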
